A study of Mus musculus with 2 samples.

Results

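The genes described here are those of BMP, TGF-beta and activin signalling: secreted ligands, their receptors and the Smad proteins inside the cell. They were chosen by symbol, as genes with a protein-coding transcript whose symbol begins with Bmp or Gdf and a digit, Bmpr, Tgfb and a digit or r, Smad and a digit, Acvr or Inhb. The rule found 52 of the 21901 genes with a protein-coding transcript and of 55536 annotated genes in all. Tgfb1i1, a focal adhesion adaptor, and Bmp2k, a kinase, entered through their symbols and are neither ligand, receptor nor Smad.

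The tissue was hippocampus, from which total RNA was taken in B6CASTF1/J females at 10 days of age, hybrids of a laboratory strain and a wild-derived strain, with no allele engineered and no treatment in the labels. The 2 libraries, biological replicates 1 and 2 of 1 group, were each made from 300 ng of RNA of a pool of 3 mice. They were depleted of ribosomal RNA, stranded and spiked with ERCC control RNAs. The layer that was sampled is not named. With 1 condition, the genes could be compared with each other and the 2 libraries with one another.

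Annotated genes held 29756524 expected counts in replicate 1 and 32148302 in replicate 2. All 5 neuron markers and all 6 astrocyte markers listed were above 1 TPM in both libraries, as were markers of microglia, endothelium, mural cells, meningeal fibroblasts and choroid plexus. The libraries did not hold the markers of all cell types at the same level. The summed level of 6 myelin genes was 194 TPM in replicate 1 and 570 in replicate 2. That of 6 choroid plexus genes was 437 and 687 TPM, of which Ttr alone made 422 and 670. In such bulk tissue, fewer cells of a type and less RNA per cell cannot be told apart.

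As background, ligands of this family are dimers that bring together type I and type II receptors, both of them kinases that span the membrane. The type I receptor phosphorylates receptor Smads: Smad2 and Smad3 after TGF-beta, activin and related ligands, and Smad1, Smad5 and Smad9 after BMPs. These join the common Smad4 and act on genes in the nucleus, while Smad6 and Smad7 inhibit the pathway. In the developing hippocampus the family is known for roles in patterning, in glial fate and in keeping neural stem cells quiet.

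Several receptors and 1 ligand were read as more than 1 annotated protein form, and the coding stretches that set the forms apart are shown here because the form results turn on them. Each is printed 5′ to 3′ on the coding strand, in lower case with the stretch that sets forms apart in capitals. The form or forms named before it hold the stretch, and the 12 bases of Tgfbr1 are also held by Tgfbr1-203. The flanks hold up to 15 bases. All were read from GENCODE M21 transcripts on mouse build mm10.
Tgfbr2-202, exon 2: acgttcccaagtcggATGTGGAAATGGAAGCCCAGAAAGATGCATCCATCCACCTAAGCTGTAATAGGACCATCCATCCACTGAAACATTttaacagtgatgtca
Tgfb2-206, exon 2: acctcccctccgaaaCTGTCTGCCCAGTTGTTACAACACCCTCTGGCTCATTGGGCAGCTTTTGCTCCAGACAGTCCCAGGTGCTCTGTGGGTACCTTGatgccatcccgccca
Acvr2b-202 and Acvr2b-201, within exon 4: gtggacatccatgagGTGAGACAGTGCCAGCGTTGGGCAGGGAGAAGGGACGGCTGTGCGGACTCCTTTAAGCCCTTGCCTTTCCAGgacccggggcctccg
Acvr2b-205 and Acvr2b-202, missing from Acvr2b-201: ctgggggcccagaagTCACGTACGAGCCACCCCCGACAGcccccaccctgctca
Tgfbr1-201, missing from Tgfbr1-205: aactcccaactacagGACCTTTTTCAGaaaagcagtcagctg
Bmpr1a-201, coding end: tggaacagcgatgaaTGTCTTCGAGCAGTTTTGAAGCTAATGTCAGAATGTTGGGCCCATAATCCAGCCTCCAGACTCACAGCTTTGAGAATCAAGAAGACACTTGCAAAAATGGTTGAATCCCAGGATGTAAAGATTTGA
Bmpr1a-202, coding end: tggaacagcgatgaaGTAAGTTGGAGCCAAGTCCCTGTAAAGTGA

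TPM sets reads against transcript length and library size. Values come from the gene table built on alignments unless the read-based table is named, with replicate 1 before replicate 2. Of the 52 genes, 37 reached 1 TPM in both libraries, which is 71.2%, against 59.4% of all genes with a protein-coding transcript. A further 15 had a mean under 1 TPM. None reached 100 TPM, a level that 3.92% of protein-coding genes had. The median over the 37 was 6.51 TPM, against 15.4 for all detected protein-coding genes, so most of these genes were read at modest levels. All 11 receptors that signal through a kinase and all 8 Smads were detected, but 12 of 27 ligands.

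**Figure D1:**
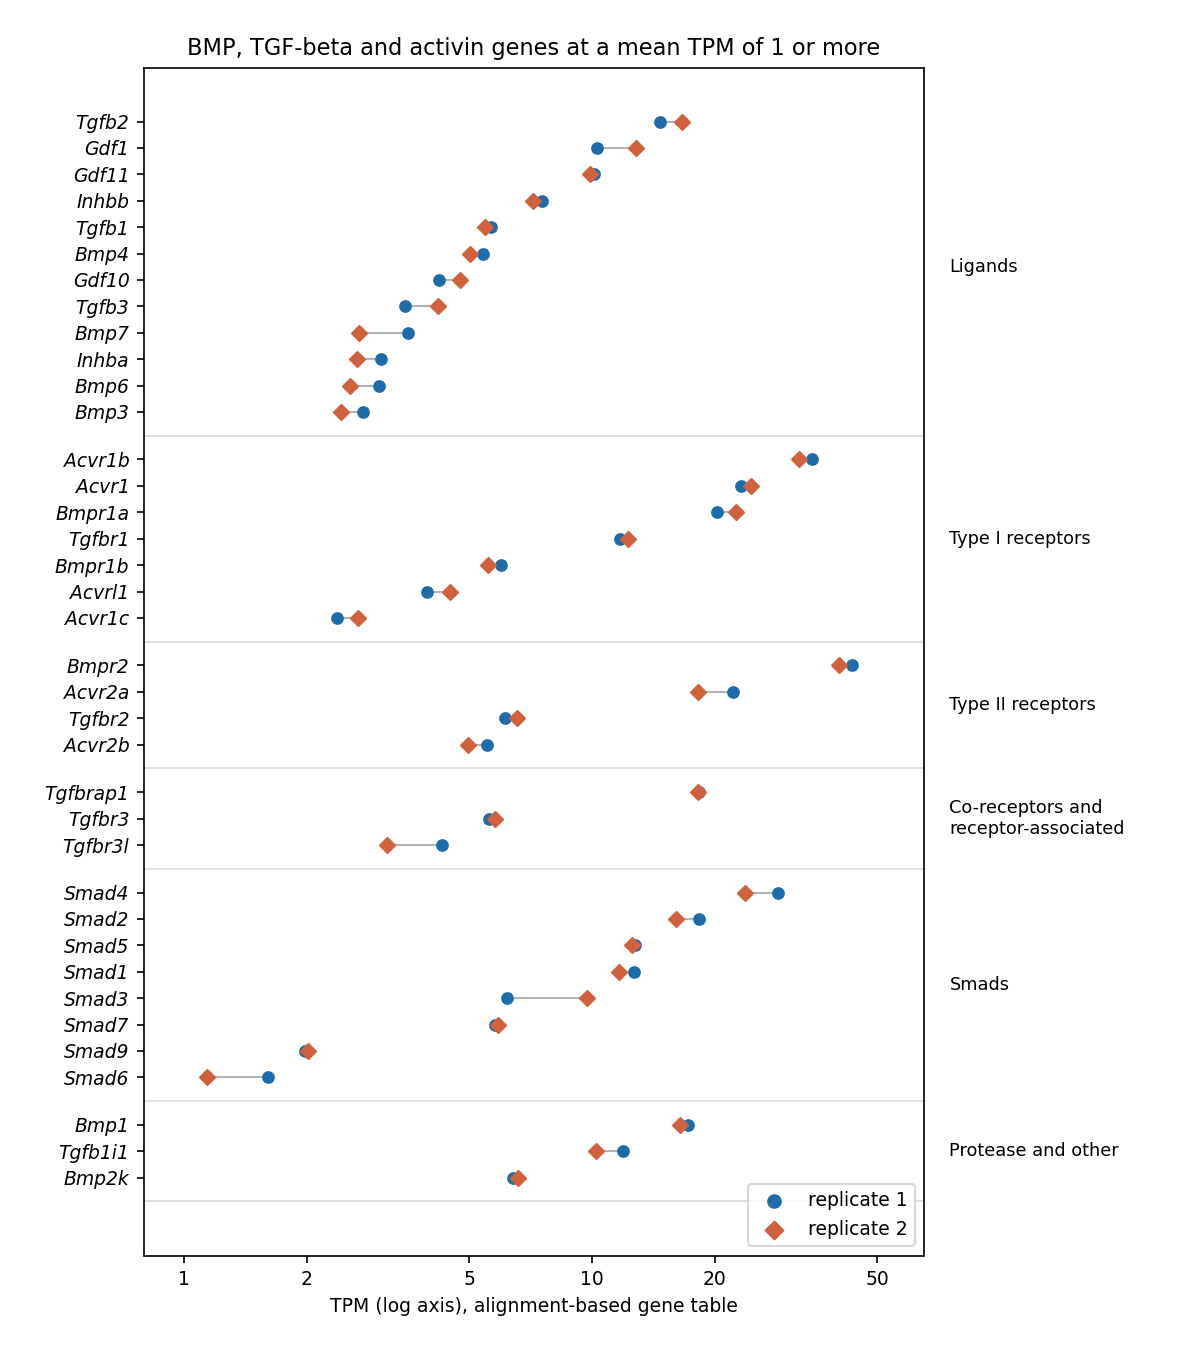
TPM of the 37 detected genes in replicate 1 (circles) and replicate 2 (diamonds) on a log axis, grouped by role. Receptors and Smads hold the highest levels, from 43.3 TPM for Bmpr2 in replicate 1, while no ligand is above 16.6 TPM, and Smad3 shows one of the widest gaps between the libraries.

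Among the ligands, Tgfb2, 1 of the 3 TGF-betas, was the highest, at 14.7 and 16.6 TPM (ENSMUSG00000039239.14; mm10 chromosome 1, 186622792 to 186705989, minus strand). Tgfb1, the form best known from immune cells and wound repair, stood at 5.65 and 5.46 TPM. Tgfb3 stood at 3.49 and 4.20 TPM. Tgfb2 was thus the leading TGF-beta in both libraries. Its log2 ratio over Tgfb1 was 1.48 ± 0.157 (SD, n = 2), or 2.78-fold, and over Tgfb3 it was 2.00 ± 0.0609.

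A ratio counted as called if its sign matched between libraries and its mean lay more than 2 SD from 0. With 2 libraries the smallest two-sided exact sign-flip p is 0.5, so no p is given. Of 23 pairs of pathway genes, 19 were called. The pairs were chosen with earlier results of these data known, and no share over other gene pairs was computed. The count is therefore not a result about the pathway.

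Ligands that act through Smad2 and Smad3 also included growth differentiation factors and activins. Gdf11, known for limiting neuron production, was at 10.1 and 9.91 TPM. Gdf1 was listed at 10.3 and 12.8 TPM, but it shares exon bases with Cers1 on the same strand, a ceramide synthase at 43.3 and 47.0 TPM. The longest overlap between an exon of each is 889 bases. The read-based table gave Gdf1 7.01 and 9.46 TPM, and Gdf11 15.2 and 14.9. The order of these 2 genes therefore changed between the tables, with a mean log2 ratio of Gdf11 over Gdf1 of -0.20 in the first and 0.87 in the second. The level of Gdf1 is uncertain for this reason.

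Inhbb, which encodes the beta-B subunit of activin, was at 7.55 and 7.16 TPM. Inhba, the beta-A subunit, was at 3.04 and 2.66 TPM. Inhbb was 2.53-fold higher, with a log2 ratio of Inhba over Inhbb of -1.34 ± 0.0782 (SD, n = 2). Inhbc, known as a liver subunit, had 1 count in replicate 1 and 0 in replicate 2.

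Ligands grouped here as BMP-type were low: 5 of 16 were detected, and all 16 together summed to 22.2 and 20.2 TPM. The grouping does not say which Smads each of them activates. Bmp4, a dorsal patterning signal of the early forebrain, stood at 5.41 and 5.04 TPM. Only 3.12 and 3.68 TPM of this lay in its protein-coding transcripts, and the rest in transcripts annotated with a retained intron. That rest came from few expected counts, 5.19 and 4.89 for Bmp4-204 and 6.13 and 0 for Bmp4-203. The read-based table put 92.9% and 100% of its Bmp4 TPM in protein-coding transcripts, so the coding share of Bmp4 is uncertain. Gdf10, also called Bmp3b, stood at 4.23 and 4.75 TPM. Over all transcripts the order of these 2 genes depended on the table, since the read-based one put Gdf10 higher, at 5.92 and 6.81 TPM against 4.82 and 5.60 for Bmp4. With protein-coding transcripts alone, Gdf10 was above Bmp4 in both libraries of both tables. Bmp3, a relative known to oppose BMP signals, was at 2.75 and 2.43 TPM. Bmp7 was at 3.54 and 2.69 TPM and Bmp6 at 3.01 and 2.55. With all its transcripts counted, Bmp4 stood 6.01-fold above Bmp2, its closest relative, which had 0.77 and 0.80 TPM from 55 and 63 counts. Bmp7 and Bmp6 were not set apart by their spread, with a log2 ratio of 0.15 ± 0.108, though the read-based table called them apart at 0.21 ± 0.0562. Gdf10 was above Bmp3 by 0.77 ± 0.237 on the log2 scale, a call that the read-based table did not give (0.59 ± 0.333).

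The 11 other BMP-type ligands all stayed under 1 TPM in both libraries, from Bmp2 at the top down to Bmp10 with 4 counts in replicate 1 and 1 in replicate 2. Among them were Bmp5 at 0.75 and 0.50 TPM, Gdf5 at 0.48 and 0.34, and the oocyte factors Gdf9 at 0.54 and 0.29 and Bmp15 at 0.13 and 0.06. Gdf6 was at 0.14 TPM in both, Gdf7 had 0 and 5 counts, and Gdf2, known as BMP9 of the liver, had 1 and 3. Bmp8a and Bmp8b are near-identical copies with at most 17.5 counts each, so the split between them is uncertain. Gdf15, Gdf3 and Inhbe had 0 counts in both libraries, which allows up to 3 counts in each and covers counting error alone. The tables differed for Inhbe, to which the read-based one gave 45.3 and 33.6 estimated counts.

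Receptors stood above the ligands in these libraries. The 7 type I receptors summed to 103 ± 1.53 TPM (SD, n = 2) and the 4 type II receptors to 73.6 ± 5.04, while all 27 ligands summed to 78.0 ± 1.42. Bmpr2, the type II receptor for BMPs (ENSMUSG00000067336.6; mm10 chromosome 1, 59763400 to 59879014, plus strand), was the highest of all 52 genes, at 43.3 and 40.3 TPM. Its mean was above that of 88.1% of protein-coding genes. Acvr1b, the main type I activin receptor, also called ALK4, came next at 34.6 and 32.2 TPM.

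Type I receptors that serve BMPs were represented by 3 genes at over 5 TPM. Acvr1, or ALK2, was at 23.2 and 24.5 TPM. Bmpr1a, or ALK3, was at 20.2 and 22.6 TPM. Bmpr1b, or ALK6, was at 6.00 and 5.56 TPM. Bmpr1a stood 3.65-fold above Bmpr1b, with a log2 ratio of 1.87 ± 0.189. Acvrl1, or ALK1, known from vessel endothelium, was at 3.94 and 4.48 TPM, and Acvr1 was 5.56-fold above it.

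Tgfbr1, or ALK5, the type I receptor of TGF-beta, was at 11.7 and 12.3 TPM. It was 2.76-fold below Acvr1b, with a log2 ratio of Acvr1b over Tgfbr1 of 1.47 ± 0.119. Acvr1c, or ALK7, a receptor of Nodal and activin B, was the lowest of the type I receptors at 2.37 and 2.67 TPM, and Acvr1b was 12.8-fold above it.

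Of the type II receptors, Acvr2a, which binds activins and several BMPs, was second to Bmpr2 at 22.2 and 18.2 TPM. Its exons overlap those of Orc4, on the other strand at 27.2 and 23.9 TPM, and the longest overlap between an exon of each is 446 bases. Whether strand was used in the counting is not stated. Acvr2b was at 5.53 and 4.97 TPM, so Acvr2a led it 3.78-fold. Tgfbr2, the type II receptor of TGF-beta, was at 6.11 and 6.54 TPM. Each TGF-beta receptor thus lay below the leading receptors of its type and above the lowest in both libraries. Tgfbr2 was near the lowest of its type, Acvr2b, and that pair was not among the 23 compared. Tgfbr1 exceeded Tgfbr2 by 0.91 ± 0.0228 on the log2 scale. Bmpr2 exceeded Tgfbr2 by 2.71 ± 0.142, or 6.52-fold.

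Co-receptors hold ligand for the kinases without signalling themselves. Tgfbr3, betaglycan, which presents TGF-beta2 to its receptor, was at 5.58 and 5.79 TPM. Its relative Tgfbr3l was at 4.29 and 3.15 TPM, but only 19.7% and 7.94% of that lay in its protein-coding transcript, and the rest in transcripts annotated with a retained intron. Tgfbrap1, which binds TGF-beta receptors, was at 18.3 and 18.2 TPM. Bmp1, which is a protease that matures collagen and frees BMPs from chordin and not a BMP, was at 17.2 and 16.4 TPM. The adaptor Tgfb1i1 was at 11.9 and 10.3 TPM and the kinase Bmp2k at 6.41 and 6.60.

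Smads summed to 85.2 ± 3.55 TPM. Smad4, shared by both branches, led them at 28.5 and 23.7 TPM. It exceeded Smad2 by 0.60 ± 0.0595 on the log2 scale, or 1.51-fold. The branches were read at like totals: Smad1, Smad5 and Smad9 summed to 26.8 ± 0.849 TPM, and Smad2 and Smad3 to 25.1 ± 0.969.

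Within the BMP branch, Smad5 at 12.7 and 12.5 TPM and Smad1 at 12.7 and 11.6 could not be set apart. Their log2 ratio was -0.05 ± 0.0754. Smad9, also called Smad8, was at 1.98 and 2.02 TPM, and Smad5 was 6.06-fold above it.

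Within the other branch, Smad2 was at 18.3 and 16.1 TPM and Smad3 at 6.20 and 9.74 TPM. Smad2 was the higher in both libraries, but the ratio itself moved between them, from 1.54 to 0.72 on the log2 scale. The mean of 1.13 ± 0.583 (SD, n = 2) stayed within 2 SD and was not called. In the read-based table it was called, at 1.23 ± 0.456.

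Of the inhibitory Smads, Smad7, which acts on both branches, was at 5.80 and 5.89 TPM. Smad6, which acts mainly on BMP receptors, was at 1.61 and 1.14 TPM, and Smad7 was 4.08-fold above it. The level of Smad6 depends on how its reads were assigned. The alignment-based table put 40.4% of its TPM in the short transcript Smad6-203 in replicate 1 and 0 in replicate 2. The read-based table put 100% in Smad6-201 in both, at 1.13 and 1.84 TPM, and gave Smad7 8.97 and 13.3. That Smad7 value of replicate 2 includes 3.95 TPM in the processed transcript Smad7-203, from 6.83 estimated counts, against 0 TPM in replicate 1. With these values Smad7 over Smad6 was 2.84 ± 0.0644 on the log2 scale, against 2.03 ± 0.343 in the alignment-based table. The 47 and 74 expected counts of Smad6 likewise ran opposite to its TPM.

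Placed in 1 order by mean TPM, the 37 detected genes ran from Bmpr2 at 41.8 to Smad6 at 1.38. Only 11 of the 36 neighbouring pairs in this order differed by more than 2 SD with the same sign in both libraries. Bmpr2 was set apart from Acvr1b, and Acvr1b from Smad4, while Smad4 and Acvr1 changed places between the libraries. From Bmpr1a down to Tgfb2 no neighbours were set apart, and the same held from Smad5 down to Inhbb and from Smad7 down to Gdf10.

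**Figure D2:**
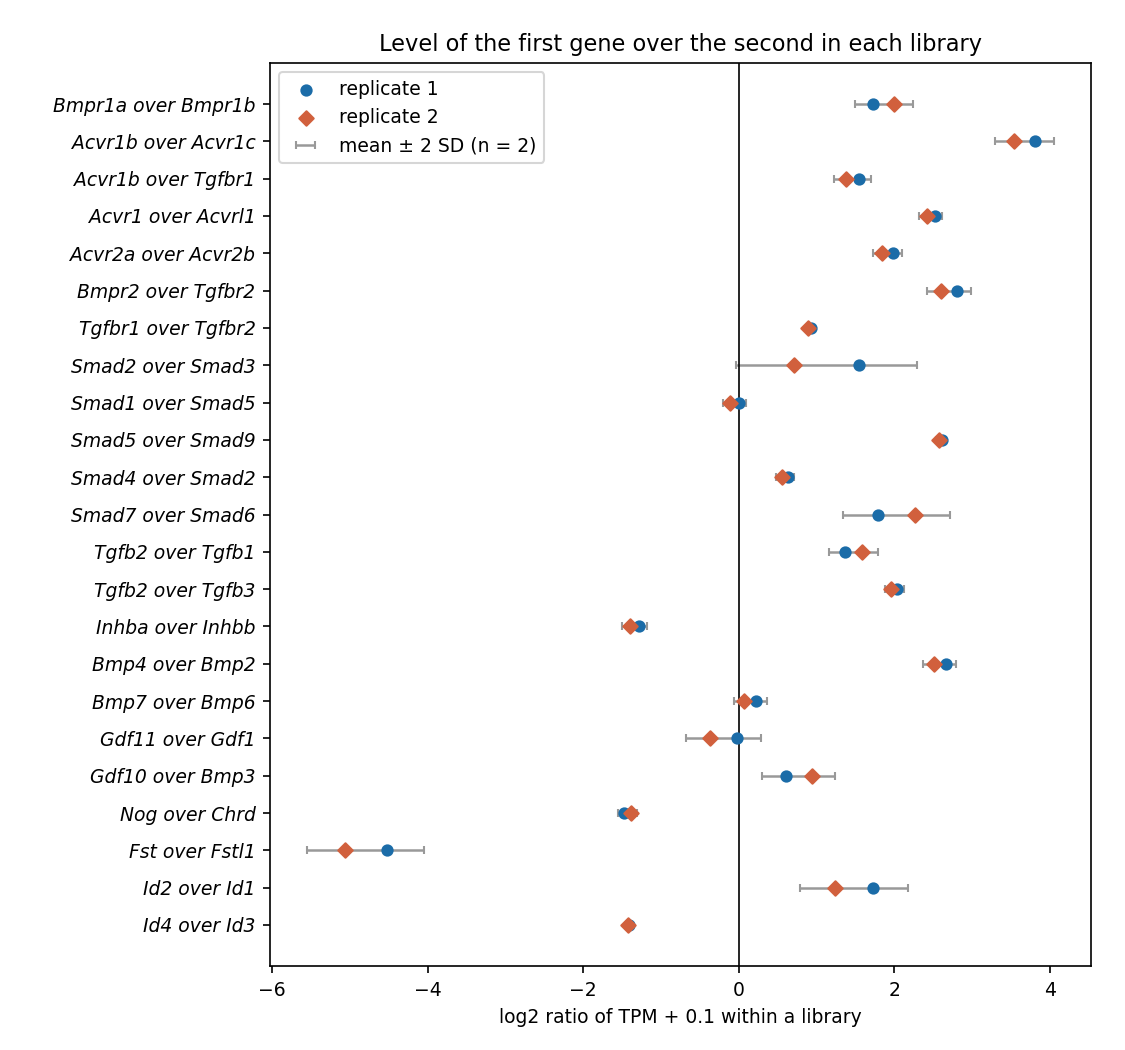
Log2 ratio of TPM plus 0.1 of the first gene over the second in replicate 1 (circles) and replicate 2 (diamonds), with bars for the mean ± 2 SD (n = 2), for the 23 pairs. The bars cross 0 for 4 pairs, Smad2 over Smad3, Smad1 over Smad5, Bmp7 over Bmp6 and Gdf11 over Gdf1, and the widest ratio is that of Fst to Fstl1.

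The second question was which annotated form carried each level, for the 26 genes at a mean TPM of 5 or more. In 24 of them the same transcript led in both libraries and in both tables, and the exceptions were Bmp4 and Smad2. Among the 24, Acvr1b, Gdf1, Gdf11 and Inhbb have a single annotated transcript, so their agreement was fixed in advance. The median share of TPM in protein-coding transcripts was 97.2%, and 93.8% in the read-based table. That share was over 90% in both libraries for 19 of the 26, and for 15 in the read-based table. It is 100% by annotation for the genes with a single transcript. No such share was computed over all genes. Shares were estimated by the authors' programs from short reads, so they carry an error of assignment that these files do not give.

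Tgfbr2 was read as 2 forms that differ by a whole exon of 75 bases, or 25 codons, in frame (mm10 chromosome 9, 116158271 to 116158345, minus strand, exon 2 of Tgfbr2-202). The shorter Tgfbr2-201 held 70.4% and 75.6% of its TPM. Tgfbr2-202, which includes the exon printed above and is known as the type II-B receptor, held 29.6% and 24.4%. The read-based table gave it 25.5% and 23.0%. The longer form was thus the minor one in both libraries and both tables.

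Tgfb2 has a similar choice in the part of its precursor that precedes the mature ligand. Tgfb2-201, without the 84-base exon (mm10 chromosome 1, 186690721 to 186690804, minus strand), held 83.3% and 70.3% of TPM. Tgfb2-206, which gains 28 codons in frame from it, held 3.40% and 6.93%. The read-based table gave the longer form 3.05 and 6.07 TPM, against 15.9 and 13.8 for Tgfb2-201, so it was the minor form in all 4 estimates. The remainder lay in retained-intron and other non-coding transcripts.

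Acvr2b was read as 3 complete annotated forms. Acvr2b-205 led with 44.7% and 63.3% of TPM. Acvr2b-202, with 72 further bases within exon 4 (mm10 chromosome 9, 119428353 to 119428424, plus strand), held 25.4% and 23.8%. That stretch opens with GT and closes with AG, the bases that usually bound an intron, and adds 24 codons in frame. Acvr2b-201, which holds the same stretch but lacks 24 bases upstream of it (119428201 to 119428224), held 5.80% and 4.64%. The read-based table gave the same order of the 3 forms in both libraries.

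Bmpr1a was read with 2 complete coding ends and with 2 transcripts of incomplete coding sequence. Of the incomplete ones, Bmpr1a-203 held 2.97% and 2.04% of TPM, and 15.2% and 29.6% in the read-based table. Bmpr1a-204 held 5.54% and 13.1%, and 5.99% and 2.52% in the read-based table. Bmpr1a-201, which encodes the full kinase domain, held 67.6% and 63.1% of TPM, and the read-based table gave it 57.9% and 51.0%. Bmpr1a-202 held 23.9% and 21.7%, and 20.9% and 16.9% in the read-based table. In place of the last 126 coding bases it reads on for 30 bases directly after the preceding exon (mm10 chromosome 14, 34414730 to 34414759, minus strand). The added stretch opens with GT. The minor ends of Smad1-203, at 4.17% and 4.30%, and of Bmp2k-202, at 26.1% and 38.5%, were of the same kind and also open with GT.

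Tgfbr1-201 held 80.1% and 74.7% of its gene's TPM. Tgfbr1-205 lacks the first 195 coding bases and a further 12 (mm10 chromosome 4, 47393247 to 47393258, plus strand), and it held 15.5% and 11.6%. Tgfbr1-203, with another start, keeps those 12 bases. It held 4.43% and 13.7%, and 14.2% and 25.8% in the read-based table.

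In Smad2 the leading single transcript differed between libraries and tables, but the full coding sequence, in Smad2-201 and Smad2-205 together, led in all 4 estimates. It held 44.4% and 45.7% of TPM, and 41.4% and 42.1% in the read-based table. Smad2-202, which skips the 90 bases of exon 3, held 26.4% and 34.7%, and 34.0% and 24.8% in the read-based table. Loss of that exon is known to let Smad2 bind DNA as Smad3 does. The skipped form was thus between 24.8% and 34.7% in the 4 estimates, with no direction between the libraries that both tables gave.

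Other genes had TPM in transcripts not annotated as protein-coding. Bmp1-205, annotated for nonsense-mediated decay, held 25.5% and 34.3% of Bmp1. Tgfbr3-204, with a retained intron, held 28.9% and 31.6% of Tgfbr3. Smad3-201 held 80.5% and 77.2% of Smad3, so its leading transcript went from 4.98 to 7.52 TPM. By contrast Acvr1b, Gdf11 and Inhbb have a single annotated transcript.

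**Figure D3:**
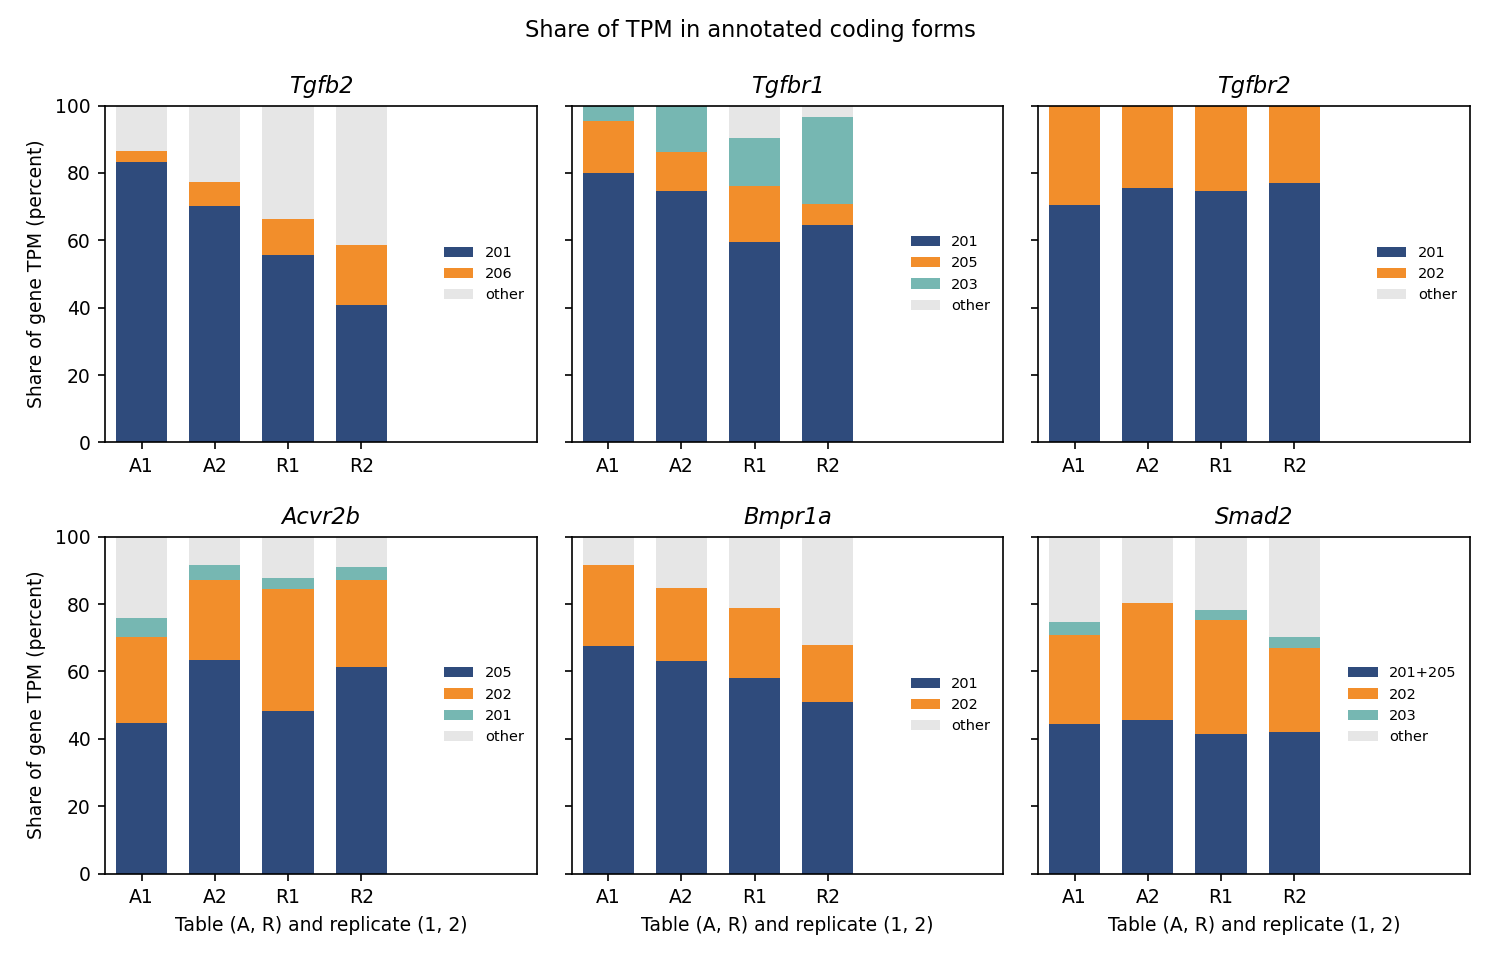
Share of each gene's TPM in its complete annotated coding forms, as stacked percent bars, for 6 genes. A1 and A2 are the alignment-based table of replicates 1 and 2, R1 and R2 the read-based table, colours are forms by transcript number, and grey is all other transcripts; Tgfbr2-202 stays between 23.0% and 29.6% in the 4 bars.

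The third question was whether the libraries differed at these genes. This compares the libraries and not conditions, with no replicate check, and pools of other mice could differ for any reason. A gene was called where the exact binomial test on expected counts, adjusted over all genes by the Benjamini-Hochberg method, gave 0.05 or less and the log2 ratio was 1 or more. Of the 44 genes with enough counts, 0 were called, against 2.85% of all 20544 genes tested; 13 had an unadjusted p under 0.05. Without the ratio threshold 8 of 44 passed, against 27.4% of all genes. A share below the background is not a result about these genes.

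Smad3 showed the widest difference among the 35 genes with 200 or more counts. It had 526 expected counts in replicate 1 and 867 in replicate 2, and 6.20 and 9.74 TPM (ENSMUSG00000032402.12; mm10 chromosome 9, 63646767 to 63757994, minus strand). Its log2 ratio of replicate 2 over replicate 1 was 0.69 with a counting SE of 0.0797 and an adjusted p of 4.65e-17 by the exact binomial test. Over 7 alternatives the ratio ran from 0.40 to 0.76 and the adjusted p by that test from 7.63e-22 to 1.65e-06. The alternatives that changed only the minimum count or the ratio threshold could not move the ratio. Among 12062 protein-coding genes with 200 or more counts, 0.522% had a ratio as high. The SD of the log2 ratio was 0.23 over those genes and 0.18 over the 35.

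The 6 other genes that were higher in replicate 2 had smaller ratios. By the same test they were Gdf1 at 0.42, Acvr1c at 0.41, Tgfb3 at 0.37, Gdf10 at 0.27, Acvr1 at 0.19 and Bmpr1a at 0.18, with adjusted p-values from 0.000865 to 0.0151. Acvr2a alone was higher in replicate 1, at -0.18 with an adjusted p of 0.000122. These directions hold relative to the bulk of genes. When the libraries were scaled by spike-in totals, the median of all genes moved to -0.29, and 1 gene, Smad3, was higher in replicate 2 while 22 were higher in replicate 1.

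Beside these differences stood those of other cell types. All 6 myelin markers were called higher in replicate 2, with a median log2 ratio of 1.72, with 2.85% of all genes called. At an adjusted p of 0.05 alone, which 27.4% of all genes passed, 3 of 6 choroid plexus, 4 of 5 neuron, 4 of 6 astrocyte and 4 of 6 microglia markers were higher in replicate 2. Of 5 progenitor markers, 1 was higher in replicate 2 and 3, Sox11, Mki67 and Top2a, in replicate 1. None of these other markers was called. The part of these in the difference of Smad3 was not tested.

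**Figure D4:**
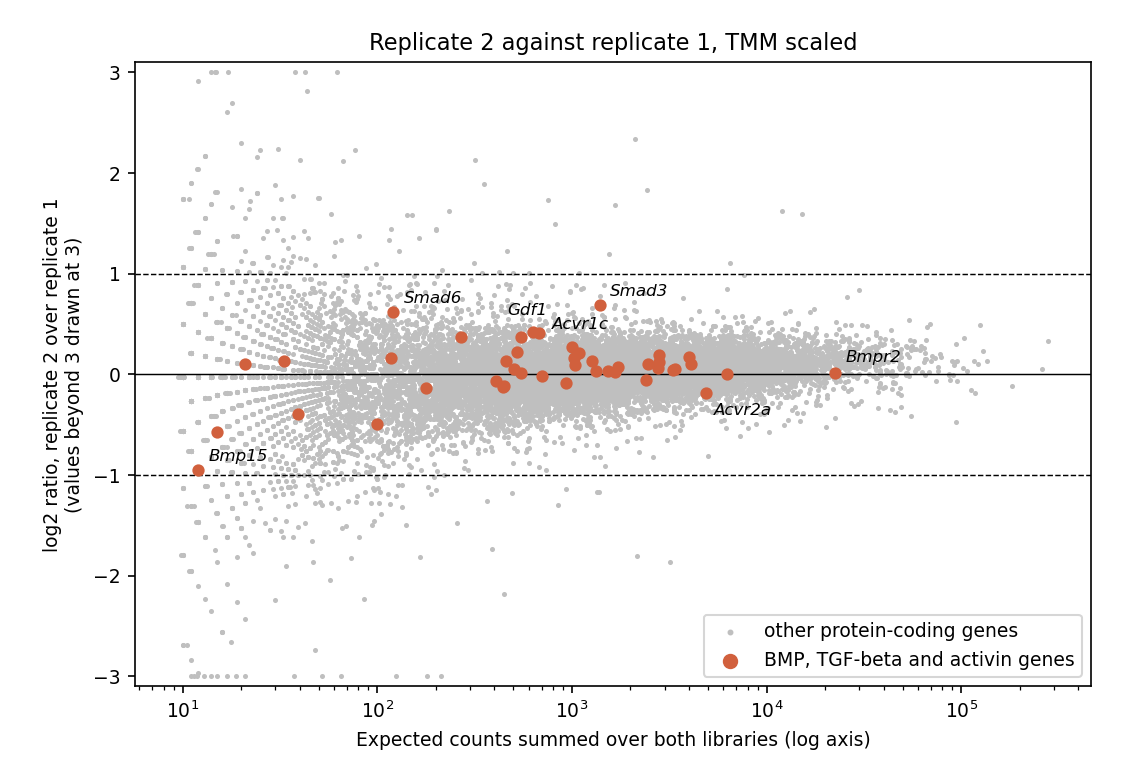
Log2 ratio of replicate 2 over replicate 1 against expected counts summed over both libraries (log axis), for protein-coding genes (grey) and the genes of BMP, TGF-beta and activin signalling (orange), with dashed lines at a log2 ratio of 1 and -1. No orange point lies beyond the dashed lines; Smad3 at 0.69 is the highest orange point, and Bmp15, with 8 and 4 counts, is the lowest.

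The rest of the pathway was read from lists of non-members, with 0 genes called between the libraries on any of the 9 lists, against 2.85% of all genes. Secreted inhibitors were present beside their ligands: 12 of 18 were detected, led by Nbl1, Fstl1 and Dcn. Chrd, chordin, at 11.0 and 11.5 TPM, was 2.70-fold above Nog, noggin, at 3.88 and 4.34. Fst, the activin trap follistatin, was at 1.33 and 0.73 TPM, while its relative Fstl1 was at 32.9 and 27.6. At an adjusted p of 0.05 by the exact binomial test, 4 of 15 tested inhibitors were higher in replicate 2 and 2 were lower. Of all genes, 27.4% passed that threshold. Fst was among the 2 lower, with a log2 ratio of -0.92 and an adjusted p of 0.0154 by that test. It was called lower in replicate 2 with spike-in totals, at -1.21, and with total counts, at -1.01. Of 16 genes for latency and activation of ligands, 13 were detected, among them Furin at 24.8 and 29.0 TPM and Ltbp4 at 25.9 and 24.5. Of the co-receptor list, 5 of 8 were detected, led by Neo1 at 71.4 and 65.3 TPM and its partners Rgma at 56.2 and 39.8 and Rgmb at 49.4 and 52.5.

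Inside the cell, all 16 listed regulators were detected. Fkbp1a, which holds type I receptors inactive, was at 234 and 277 TPM, above every gene of the family itself. Usp9x, which acts on Smad4, was at 105 and 111, and Ppm1a, a Smad phosphatase, at 99.0 and 107. Of 11 nuclear partners 8 were detected, led by Zeb2 at 154 and 143 TPM, and of 8 genes of the non-Smad branch 7.

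Of 8 BMP response genes 6 were detected, chiefly the Id genes, inhibitors of basic helix-loop-helix factors. Id2 was at 45.7 and 51.4 TPM, Id3 at 44.2 and 50.6, Id4 at 16.6 and 18.9 and Id1 at 13.7 and 21.7. By the exact binomial test all 4 were higher in replicate 2 at an adjusted p of 0.05, with log2 ratios from 0.27 to 0.77, and none was called. Of all genes, 27.4% passed that threshold, and the median log2 ratio of the astrocyte and microglia markers was 0.19 and 0.31; their part in the Id genes was not tested. Scaled by spike-in totals, Id1 stayed higher at 0.48, while Id2 at -0.01, Id3 at -0.02 and Id4 at 0.01 did not pass. Of 10 TGF-beta and activin response genes, 1 was higher and 2 were lower in replicate 2 at an adjusted p of 0.05, a share near the 27.4% of all genes, with a median log2 ratio of 0.00; Sparc led them at 166 and 191 TPM.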

How the data were processed

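The genes, lists and pairs were chosen with earlier results of these data known. Build mm10 and annotation M21 are named by the deposited notes; no source used here names the programs. Deposited expected counts are not normalized and were rounded before testing. The deposited TPM column shares its scale with the spike-ins. Deposited FPKM served in 1 alternative. A second table estimated from reads and an index, here called read-based, holds the authors' estimated counts and TPM per transcript, which were summed per gene. Its TPM for detected members had a median ratio of 1.54 to the alignment-based values (1.57 for all detected protein-coding genes), so a level in one table is not on the scale of the other.

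Detection meant 1 TPM in both libraries, and ratios used TPM plus 0.1. Genes with 10 or more summed counts entered the exact two-sided conditional binomial test, with TMM effective library sizes (edgeR 4.0.16), a pseudocount of 0.5 for ratios and Benjamini-Hochberg adjustment. Labels give separate pools but only 2 of them, so p-values measure counting error between these libraries. DESeq2 1.42.0 size factors were an alternative. R 4.3.3, Python 3.11.15, numpy 2.4.6, scipy 1.17.1 and pandas 2.3.3 were used, and the test was checked on simulated counts. Spike-ins held 0.341% and 0.393% of counts; 26249 other entries, which name no gene, were omitted (4 and 6 counts). All members at a mean of 1 TPM or more are named, of each list up to 4 of the highest, and all pairs. Sequences are those of the annotation, not of reads. Exon overlap with another gene was found for 18 members.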

Additional observations from a re-analysis of the deposited data

How the results depend on the processing

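The count of 37 detected members ran from 25 at a threshold of 5 TPM to 39 at 0.5 TPM, and was 35 at 2 TPM, 38 in the read-based table with its own TPM scale, 36 by FPKM and 37 in either library alone. The median level over all 52 members, 4.86 TPM, was 6.55 in the read-based table and 10.3 when TPM was rescaled to protein-coding genes, and 4.85 to 4.86 with either library left out. No member was called between the libraries under 6 of 7 alternatives, and 8 were without a ratio threshold. Over all genes, 585 were called, against 1276 with spike-in totals and 311 of the genes with 50 or more counts. The number of members at an adjusted p of 0.05 was 8, and it was 11 with DESeq2 size factors, 5 with total counts, 13 in the read-based table and 23 with spike-in totals. Under spike-in totals Acvr1 turned to -0.10 (adjusted p 0.124), Bmpr1a to -0.11 (0.0283) and Gdf10 to -0.018 (0.895) by the exact binomial test; their range over all 7 alternatives reached 0.22, 0.20 and 0.32. On the other lists, Tdgf1 was called higher in replicate 2 in the read-based table (2.67, adjusted p 0.04003 by that test), and Fst and Mstn higher in replicate 1 with spike-in totals. Of 23 pairs, 19 were called with 0.01 or 1 TPM added and 21 in the read-based table. With 1 TPM added, Bmp4 over Bmp2 was 1.80 and Fst over Fstl1 was -3.96 on the log2 scale. A called pair has the same sign in either library alone by the rule of the call, so this was no further check. The median coding share of 97.2% was 93.8% in the read-based table and 96.3% to 100% with either library left out. Leaving out a library leaves no comparison between libraries and no spread for a pair, so those calls were not made. No paired analysis was possible because the series has 1 group. Low members are limited by depth: 8 of 52 had under 10 counts in sum and were not tested.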
